A study of Homo sapiens with 18 samples.

Results

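The kinesin motor genes and the centromere protein (CENP) genes were followed through the response of DU145 cells to GC7. Members were taken by symbol, as every gene of the fraction table named KIF with a number, KIFC with a number, or CENP with a letter from A to X. This gave 57 genes of 15747, 36 kinesins and 21 centromere proteins, and all 57 also stood in the whole-cell table of 44682 genes. They were sorted by known role into 13 mitotic kinesins, 16 transport kinesins, 7 other kinesins of cilia, signalling or unassigned role, 3 proteins of centromeric chromatin, 14 of the constitutive centromere network and 4 other CENP proteins.

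DU145 is an established line from a metastatic prostate carcinoma. Cells received 40 µM GC7 or vehicle alone for 24 h. GC7 inhibits deoxyhypusine synthase, which starts the conversion of a lysine of the translation factor eIF5A into hypusine, and the study asked how loss of this modification changes mRNA abundance and ribosome loading. RNA was taken of whole cells, of cytoplasm and of heavy polysomes, the part of a sucrose gradient in which mRNAs carry many ribosomes. There were 3 libraries in each of 6 groups, 18 in all, and every group was of this 1 line. Per the labels' protocols, cells were given emetine, which stalls ribosomes, before lysis.

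The values were comparisons of GC7 with vehicle as deposited, without values per library, so neither the depth of a library nor the spread between replicates could be given. No label says that replicates were separate cultures. The p-values therefore cover the spread of these libraries only, which could be technical. Neither table states its numerator, and all directions rest on reading "UP" in the authors' categories as a higher level with GC7. Epithelial markers (KRT7, KRT8, KRT18, KRT19, EPCAM, CDH1) were measured, 6 of 6. Of 9 markers of leukocytes, endothelium and fibroblasts, 3 were in it (CD68, COL1A1 and COL3A1). In cytoplasm no epithelial marker and none of these 3 passed in the authors' deposited table. In polysomes the epithelial KRT7 and EPCAM rose by 1.00 (adjusted p = 5.29e-05) and 0.59 (adjusted p = 0.00408) on the log2 scale in the authors' deposited table, and the other 4 epithelial markers did not pass. CD68 rose there by 0.45 in the authors' deposited table (adjusted p = 0.0216), while COL1A1 and COL3A1 had -0.11 and -0.02 and did not pass. The part of these markers in the results was not tested.

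Kinesins are motors that hydrolyse ATP to walk along or take apart microtubules. One set works in dividing cells, where it pushes spindle poles apart, moves chromosomes and builds the midzone at which the cell is cut. Another set carries vesicles, organelles and RNA at all stages of the cell cycle. The centromere is marked by the histone H3 variant CENP-A, on which the constitutive centromere network assembles and holds the outer kinetochore, the plate that binds spindle microtubules. Many mitotic kinesin and kinetochore genes are switched on late in the cell cycle. Some of them are switched on through promoter elements named CHR (cell cycle genes homology region) and CCAAT box, the latter bound by NF-Y.

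Promoters of mitotic and transport kinesins held these elements at different shares, given here as a description with no test. RefSeq windows (GRCh38.p14) from 250 bases before to 50 after the start were at hand for 47 of 57 members and 11138 genes of the fraction table. They were searched on both strands for the CHR letters TTTGAA or TTTAAA, for CCAAT and for the E2F letters TTTCGCGC or TTTGGCGC. CHR letters were found in 11 of 13 mitotic kinesins (84.6%), 2 of 12 transport kinesins (16.7%), 6 of 17 centromere proteins (35.3%) and 20.5% of all genes with a window. CCAAT was found in 76.9%, 33.3%, 58.8% and 42.6% of the same sets. Both together stood in 69.2% of mitotic kinesins, 8.33% of transport kinesins, 23.5% of centromere proteins and 10.7% of all genes. The E2F letters were rare, in 2 of 47 members (KIF15 and CENPU) and 2.47% of genes. A match describes the letters in the window and is not a binding site.

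Windows of 150 bases, 100 before the start and 50 from it, are shown for 9 genes. These are 4 mitotic kinesins, 3 genes of the centromere network and 2 transport kinesins, picked to display the contrast between the sets. Exceptions to it are not shown, such as KIF5B, a transport kinesin with both elements, and the mitotic KIF2A and KIF22 without CHR letters. Capitals mark CHR and CCAAT letters on either strand, and each line reads 5′ to 3′ along the strand of the gene.
KIF11 (chr10:92593030-92593179, plus strand): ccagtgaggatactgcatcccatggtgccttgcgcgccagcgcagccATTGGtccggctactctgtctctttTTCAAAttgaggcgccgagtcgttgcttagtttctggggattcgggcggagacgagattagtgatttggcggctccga
KIF18B (chr17:44947724-44947873, minus strand): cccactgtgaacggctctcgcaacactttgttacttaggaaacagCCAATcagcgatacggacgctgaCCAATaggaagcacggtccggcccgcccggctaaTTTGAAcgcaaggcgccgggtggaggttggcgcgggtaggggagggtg
KIF20A (chr5:138179012-138179161, plus strand): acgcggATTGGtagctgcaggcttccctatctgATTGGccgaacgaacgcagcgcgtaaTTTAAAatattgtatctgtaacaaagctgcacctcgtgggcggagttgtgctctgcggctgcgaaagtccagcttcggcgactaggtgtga
KIF20B (chr10:89701490-89701639, plus strand): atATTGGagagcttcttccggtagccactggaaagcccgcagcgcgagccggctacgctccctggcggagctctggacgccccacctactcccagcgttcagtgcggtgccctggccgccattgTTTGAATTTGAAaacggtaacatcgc
CENPN (chr16:81007114-81007263, plus strand): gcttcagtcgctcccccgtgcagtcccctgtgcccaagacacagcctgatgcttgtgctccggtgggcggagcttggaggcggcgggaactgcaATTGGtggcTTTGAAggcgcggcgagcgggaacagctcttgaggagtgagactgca
CENPO (chr2:24793325-24793474, plus strand): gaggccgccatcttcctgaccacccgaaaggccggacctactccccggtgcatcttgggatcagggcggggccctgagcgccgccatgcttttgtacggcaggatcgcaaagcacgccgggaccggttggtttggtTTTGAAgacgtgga
CENPX (chr17:82022829-82022978, minus strand): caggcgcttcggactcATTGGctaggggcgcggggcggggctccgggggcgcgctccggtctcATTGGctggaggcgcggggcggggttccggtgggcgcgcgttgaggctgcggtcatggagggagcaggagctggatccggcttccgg
KIF3C (chr2:25982448-25982597, minus strand): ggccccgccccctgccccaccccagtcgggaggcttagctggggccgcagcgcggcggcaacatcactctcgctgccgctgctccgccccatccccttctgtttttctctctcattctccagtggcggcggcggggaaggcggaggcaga
KIF1C (chr17:4997850-4997999, plus strand): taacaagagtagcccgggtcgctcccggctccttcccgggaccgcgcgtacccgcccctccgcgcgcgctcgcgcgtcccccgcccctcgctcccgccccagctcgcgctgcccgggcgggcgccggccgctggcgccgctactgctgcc

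In KIF11, KIF18B and KIF20A the CCAAT letters came first and the CHR letters followed nearer the start. CHR began 28 bases before the start in KIF11, 41 before it in KIF20A and 2 after it in KIF18B. KIF20B held CHR letters in tandem, 24 and 30 bases after its start. CENPN had both elements around the start, CENPO had CHR letters alone, 36 bases after it, and CENPX had 5 CCAAT matches in its whole window and no CHR match. The windows of the transport kinesins KIF3C and KIF1C held neither.

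**Figure D1:**
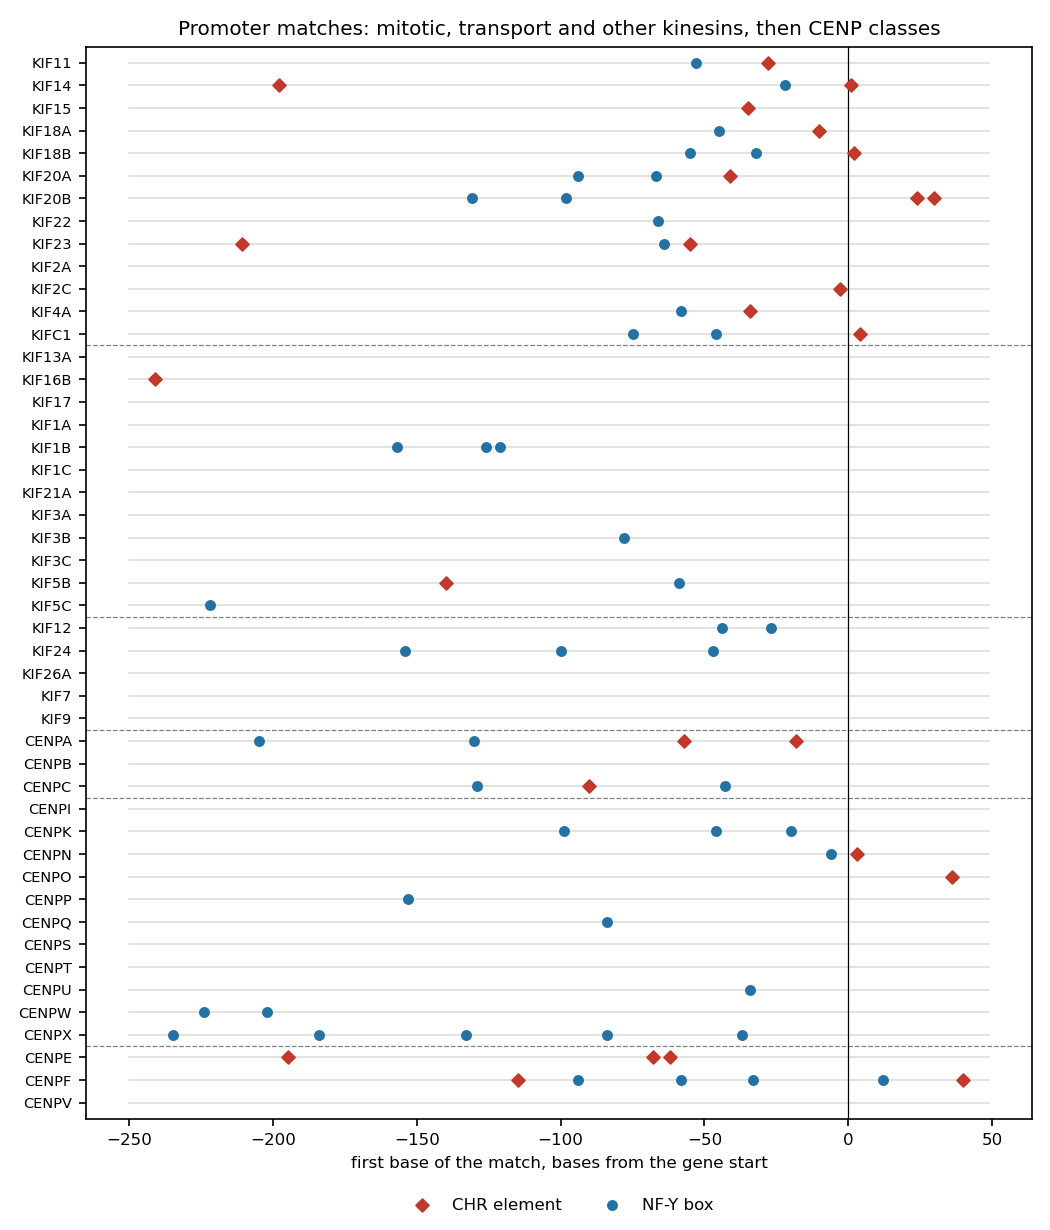
First base of each CHR and CCAAT match (the latter named NF-Y box in the plot) in the RefSeq promoter windows of 47 members, in bases from the annotated start, with 1 line per gene and dashed lines between roles. CHR matches stand in 11 of 13 mitotic kinesins and in 2 of 12 transport kinesins.

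In heavy polysomes, mRNAs of several centromere proteins and mitotic kinesins fell with GC7, among them CENPW, CENPX, CENPO, KIF20B, KIF18B and KIF11, and KIF26B and KIF7 rose. A gene was called at an adjusted p under 0.05 of the authors' deposited table. In polysomes 13 of 57 members were called lower and 2 higher in the authors' deposited table, beside 5.48% lower and 5.61% higher among all genes. The members called lower were 3 of 13 mitotic kinesins, 2 of 3 genes of centromeric chromatin, 6 of 14 genes of the centromere network and 2 of 16 transport kinesins. None of the 7 other kinesins and none of the 4 other CENP proteins was called lower. In bulk RNA, fewer cells in division and less of an mRNA per cell cannot be told apart.

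In cytoplasm 6 members were called lower and 1 higher in the authors' deposited table, beside 1.95% and 2.29% of all genes. KIF20B, CENPX and CENPO were lower in both fractions, KIF26B was higher in both, and no member was called in opposite directions. In all, 18 members were called in either fraction. The shares of all genes were not computed for these counts across the fractions. No called member reached a log2 fold change of 1 in size, the limit of the authors' own categories, in the authors' deposited table, whose fold changes are shrunken towards 0. With the shrinkage undone, the polysomal values of KIF7 and KIF26B were 1.15 and 1.00.

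Values of the members that were not called are included in the next counts. In polysomes 12 of 13 mitotic kinesins and 19 of 21 centromere proteins, 14 of 14 in the network, had a value below 0 in the authors' deposited table, beside 5 of 16 transport kinesins and 51.5% of all genes. The median polysomal log2 fold change in the authors' deposited table was -0.09 for mitotic kinesins, -0.32 for centromere proteins and 0.05 for transport kinesins, beside a median near 0 for all genes. These shares and medians carry no test. The shrinkage is stronger for noisy genes. After the shrinkage was undone the same medians were -0.26, -0.42 and 0.10.

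**Figure D2:**
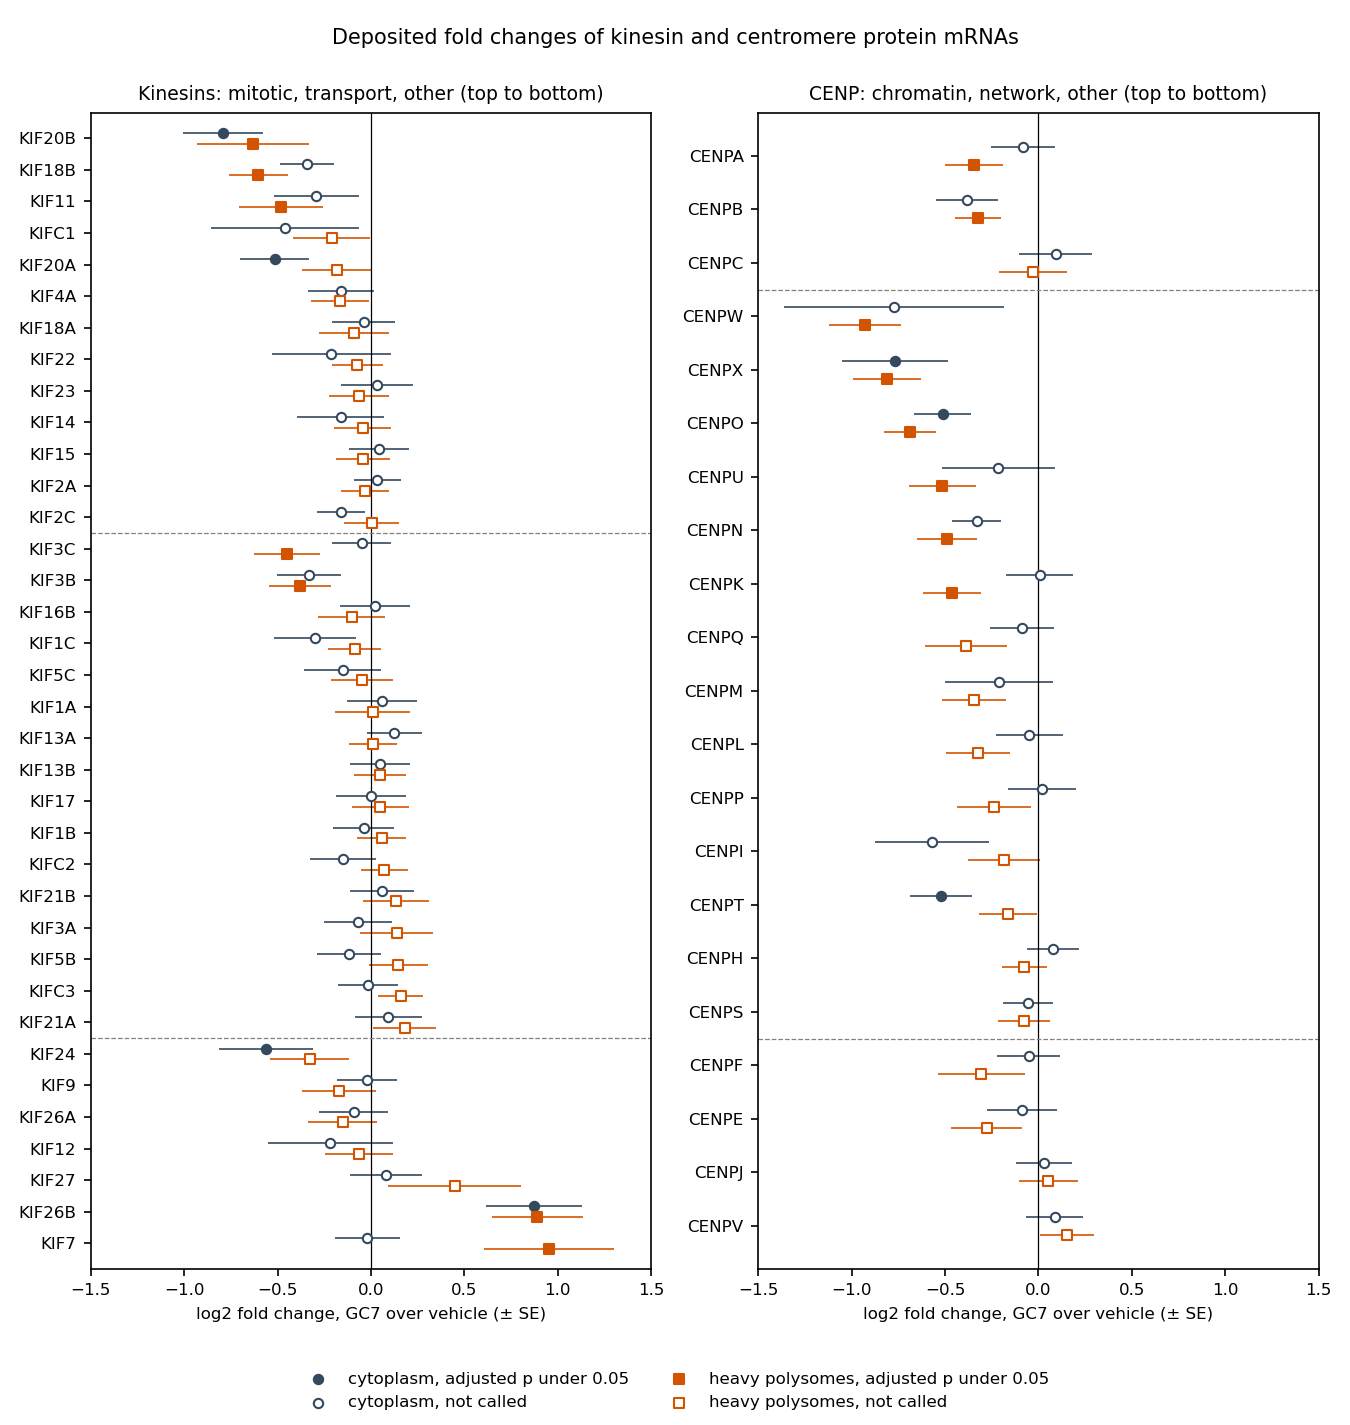
Log2 fold change of GC7 against vehicle in cytoplasm and in polysomes for each of the 57 members as deposited, with bars of 1 SE, grouped by role; filled points have an adjusted p under 0.05. In polysomes the 14 genes of the centromere network lie below 0, and the transport kinesins lie around 0 with KIF3C and KIF3B below.

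Among the mitotic kinesins KIF20B fell furthest. KIF20B is a motor of the spindle midzone needed for the end of cytokinesis. Its cytoplasmic value in the authors' deposited table was -0.79 on the log2 scale (SE 0.21, adjusted p = 0.00127). Its polysomal value in the authors' deposited table was -0.63 (SE 0.30, adjusted p = 0.0276). KIF18B, which shortens astral microtubules, fell by 0.60 on the log2 scale in polysomes in the authors' deposited table (SE 0.16, adjusted p = 0.000600), and its cytoplasmic value of -0.34 did not pass (adjusted p = 0.0685). KIF11 (Eg5), the motor that slides antiparallel microtubules and separates the spindle poles, fell by 0.48 in polysomes in the authors' deposited table (SE 0.23, adjusted p = 0.0372), beside -0.29 in cytoplasm (adjusted p = 0.283).

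KIF20A, the midzone motor that brings the chromosomal passenger complex to the site of cleavage, was called only in the other fraction. Its cytoplasmic log2 fold change in the authors' deposited table was -0.52 (SE 0.19, adjusted p = 0.0200), and its polysomal one -0.18 (adjusted p = 0.396). The KIF20A difference between fractions was 0.29 (95% interval -0.26 to 0.84), so the fractions were not shown to differ. The most abundant mitotic kinesins in cytoplasm were KIF22, KIF20A, KIFC1 and KIF2C, with mean normalized counts of 4200.1, 2649.9, 2571 and 1472 in the authors' deposited table. KIF22, a chromokinesin that pushes chromosome arms from the poles, had a polysomal log2 fold change of -0.07 in the authors' deposited table (adjusted p = 0.751). KIFC1, a motor that moves to microtubule minus ends and bundles them at the poles, had -0.21 there in the authors' deposited table (adjusted p = 0.324). KIF2C, a microtubule depolymerase that corrects faulty attachments, was the 1 mitotic kinesin not below 0 in polysomes, with 0.004 in the authors' deposited table (SE 0.15). The other 6 (KIF2A, KIF4A, KIF14, KIF15, KIF18A and KIF23) passed in neither fraction, with polysomal values from -0.17 for KIF4A to -0.03 for KIF2A in the authors' deposited table.

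In centromeric chromatin, CENPA and CENPB fell in polysomes and CENPC did not pass. CENPA, the histone variant that marks the centromere, fell by 0.35 on the log2 scale in the authors' deposited table (SE 0.15, adjusted p = 0.0477), close to the limit. CENPB, which binds a short motif of alpha satellite DNA, fell by 0.32 in the authors' deposited table (SE 0.12, adjusted p = 0.0258). In cytoplasm neither passed, with -0.08 for CENPA and -0.38 for CENPB in the authors' deposited table. CENPC, the scaffold that ties the CENP-A nucleosome to the kinetochore, had a polysomal value of -0.03 in the authors' deposited table (SE 0.18, adjusted p = 0.899).

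The constitutive centromere network is built of smaller complexes, and genes called lower in polysomes were spread over all 4 of them. In the histone-fold complex of CENP-T, CENP-W, CENP-S and CENP-X, which binds centromeric DNA, CENPW fell by 0.93 in polysomes in the authors' deposited table (SE 0.19, adjusted p = 7.88e-06), the lowest polysomal value of all members. In the authors' deposited table CENPX fell in cytoplasm by 0.77 (SE 0.29, adjusted p = 0.0154) and in polysomes by 0.81 (SE 0.18, adjusted p = 4.54e-05). CENPT fell in cytoplasm by 0.52 in the authors' deposited table (SE 0.17, adjusted p = 0.00818), beside -0.16 in polysomes (adjusted p = 0.414). CENPW and CENPX are the smallest of the 4, and CENPS, the third small subunit, had -0.08 in polysomes (adjusted p = 0.738) in the authors' deposited table, the value of the network nearest to 0. The CENPW value in cytoplasm, -0.77, was as low as that of CENPX in the authors' deposited table, but its SE was 0.59 and it did not pass (adjusted p = 0.0921).

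In the complex of CENP-O, CENP-P, CENP-Q and CENP-U, which recruits the kinase PLK1, the authors' deposited table has a fall of CENPO by 0.51 in cytoplasm (SE 0.15, adjusted p = 0.00550) and by 0.69 in polysomes (SE 0.14, adjusted p = 7.93e-06). CENPU fell by 0.51 in polysomes in the authors' deposited table (SE 0.18, adjusted p = 0.00808). The partners CENPQ and CENPP had polysomal values of -0.39 and -0.24 in the authors' deposited table, which did not pass (adjusted p = 0.0830 and 0.265). A further subunit of this complex, CENP-R (gene ITGB3BP), was missed by the symbol rule and was listed with the core kinetochore below.

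CENP-N and CENP-L form a pair that recognises the CENP-A nucleosome. CENPN fell by 0.49 in polysomes in the authors' deposited table (SE 0.16, adjusted p = 0.00643), and CENPL had -0.32 (adjusted p = 0.0910). Of the complex of CENP-H, CENP-I, CENP-K and CENP-M, only CENPK was called, with a polysomal fall of 0.46 in the authors' deposited table (SE 0.16, adjusted p = 0.00807). Its cytoplasmic value was 0.01 in the authors' deposited table (SE 0.18). CENPM had -0.34 in polysomes (adjusted p = 0.0700), CENPI -0.18 (adjusted p = 0.387) and CENPH -0.08 (adjusted p = 0.716) in the authors' deposited table.

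The remaining CENP proteins passed in neither fraction. CENPE, itself a kinesin that carries chromosomes to the spindle equator, had a polysomal value of -0.28 in the authors' deposited table (SE 0.19, adjusted p = 0.183). CENPF, a large protein of the outer kinetochore, had -0.31 in the authors' deposited table (SE 0.23, adjusted p = 0.173). CENPJ, which builds centrioles, had 0.05 and CENPV, which acts in chromosome alignment and midzone organisation, had 0.15 in the authors' deposited table.

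Among the transport kinesins none of 16 was called in cytoplasm, and the 2 called in polysomes were both of the kinesin-2 family. KIF3B, which pairs with KIF3A in transport along cilia and in the cytoplasm, fell by 0.38 in polysomes in the authors' deposited table (SE 0.17, adjusted p = 0.0397). KIF3C, a further partner of KIF3A, fell by 0.45 in the authors' deposited table (SE 0.18, adjusted p = 0.0200). KIF3A itself had 0.14 in the authors' deposited table (SE 0.20, adjusted p = 0.517).

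The abundant transport kinesins lay near 0. The 4 highest mean normalized counts of the class in cytoplasm were 7494 for KIFC3, 4669 for KIF1C, 2182 for KIF5B and 1115 for KIF13A in the authors' deposited table. KIFC3, a minus-end motor of adherens junctions, had a polysomal log2 fold change of 0.16 in the authors' deposited table (SE 0.12, adjusted p = 0.353). KIF5B, the ubiquitous heavy chain of conventional kinesin, had 0.15 in the authors' deposited table (SE 0.16, adjusted p = 0.482). KIF1C, a motor of vesicles and RNA, had -0.09 and KIF13A, an endosome motor, had 0.01 in the authors' deposited table. The highest value of the class was 0.18 for KIF21A in the authors' deposited table (adjusted p = 0.382). The 8 transport kinesins not named so far ran from -0.10 for KIF16B to 0.14 for KIF21B in the authors' deposited table, each closer to 0 than its SE.

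The other kinesins held the only members called higher. KIF26B, a kinesin without known motor activity that acts in cell adhesion and Wnt signalling, rose by 0.87 on the log2 scale in cytoplasm in the authors' deposited table (SE 0.25, adjusted p = 0.00269). In polysomes it rose by 0.89 in the authors' deposited table (SE 0.25, adjusted p = 0.000693). KIF7, which organises the tip of the cilium in Hedgehog signalling, rose by 0.95 in polysomes in the authors' deposited table (SE 0.35, adjusted p = 0.00651), while its cytoplasmic value was -0.02 (SE 0.18, adjusted p = 0.948). KIF7 is scarce, with mean normalized counts of 59.8 and 65.8 in the authors' deposited table, and a minimum count of 100 leaves it out.

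KIF24, which restrains the growth of cilia, fell by 0.56 in cytoplasm in the authors' deposited table (SE 0.25, adjusted p = 0.0486), close to the limit, with -0.33 in polysomes (adjusted p = 0.132). KIF9 and KIF26A had polysomal values of -0.17 and -0.15 in the authors' deposited table, and neither passed. KIF12 and KIF27 had polysomal values of -0.06 and 0.45 in the authors' deposited table, and neither passed (adjusted p = 0.764 and 0.104). Their mean normalized counts in cytoplasm were 47.4 and 51.7 in the authors' deposited table.

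Of the 57 members, 17 overlap another gene of the fraction table in GENCODE, among them 9 of the 18 called, and whether reads were counted by strand is not given in the sources used here. KIF7 (chr15:89608789-89663086, minus strand) overlaps TICRR on the other strand, whose mean normalized count in cytoplasm was 597 and which fell by 0.72 and 0.73 in cytoplasm and polysomes in the authors' deposited table. In polysomes this is opposite in sign to KIF7. CENPX overlaps LRRC45, CENPO overlaps ADCY3 and PTRHD1, CENPN overlaps CMC2, CENPU overlaps PRIMPOL, CENPT overlaps NUTF2, THAP11 and TSNAXIP1, KIF20A overlaps CDC23 and BRD8, and KIF24 overlaps UBAP1, all on opposite strands. CENPA overlaps SLC35F6 on the same strand. Overlaps were taken over whole gene spans, introns included, and overlap of exons was not checked. How far reads of these pairs could be confused is therefore unknown here. KIF26B (chr1:245154985-245709432, plus strand) overlaps no gene of that table.

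The genes of the centromere network are short, and short genes had lower polysomal values. The median coding length was 836 bases in the network, 2694 in mitotic kinesins and 3197 in transport kinesins, beside 1401 in all genes. Among all 1649 genes with at most 600 coding bases the median polysomal log2 fold change in the authors' deposited table was -0.11, and for 4753 genes of 1200 to 2400 bases it was 0.02. For the 5 members of at most 600 bases the median in the authors' deposited table was -0.35, and the 8 members of 600 to 1200 bases -0.36, beside -0.02 for all 3648 genes of that length. Over the 57 members Spearman's rho of coding length and polysomal value was 0.44, within the 36 kinesins 0.25, within the 21 centromere proteins 0.40 and over 12849 genes 0.17, given as a description since genes of a library share its depth and composition. The part of length in the response of the network was not tested.

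CHR letters were found among members that fell in polysomes and among those that did not. They stood in 6 of 13 members called lower in polysomes (46.2%) and in 13 of 34 other members with a window (38.2%). CCAAT stood in 76.9% and 47.1% of the same sets. Of the mitotic kinesins shown above, KIF11, KIF18B and KIF20B with CHR letters fell in polysomes and KIF20A with CHR letters did not pass there, and KIF3C, without either element in the shown bases, fell.

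The question of ribosome loading is whether polysomal RNA changed beyond cytoplasmic RNA. The difference of the unshrunken log2 fold changes, polysomal minus cytoplasmic, was tested over 15669 genes by a normal test, 2-sided, with Benjamini-Hochberg adjustment. It called 0 of 57 members, beside 0% of all genes higher and 0% lower, and 335 genes (2.14%) had an unadjusted p under 0.05. Of the members only KIF7 had one, with a difference of 1.23 (SE 0.48, 95% interval 0.28 to 2.18), and its adjusted p was 0.9996. With an assumed correlation of 0.5 between the errors of the fractions, 20 genes were called and still none of the members, and the adjusted p of KIF7 was 0.0976. At that correlation 5 members (8.77%) and 1355 genes (8.65%) had an unadjusted p under 0.05, so the members' share was that of all genes.

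Differences of the members ran from -0.57 for CENPK (95% interval -1.45 to 0.31) to that of KIF7. The median was 0.04 for mitotic kinesins, 0.09 for transport kinesins and -0.09 for centromere proteins, beside 0.01 for all genes. CENPX and KIF20B, lower in both fractions, had differences of 0.05 (95% interval -0.57 to 0.67) and 0.06 (95% interval -0.60 to 0.73). The unshrunken polysomal values of CENPX and KIF20B were -0.88 and -0.82. A change of ribosome loading within the intervals of the differences was not detectable.

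**Figure D3:**
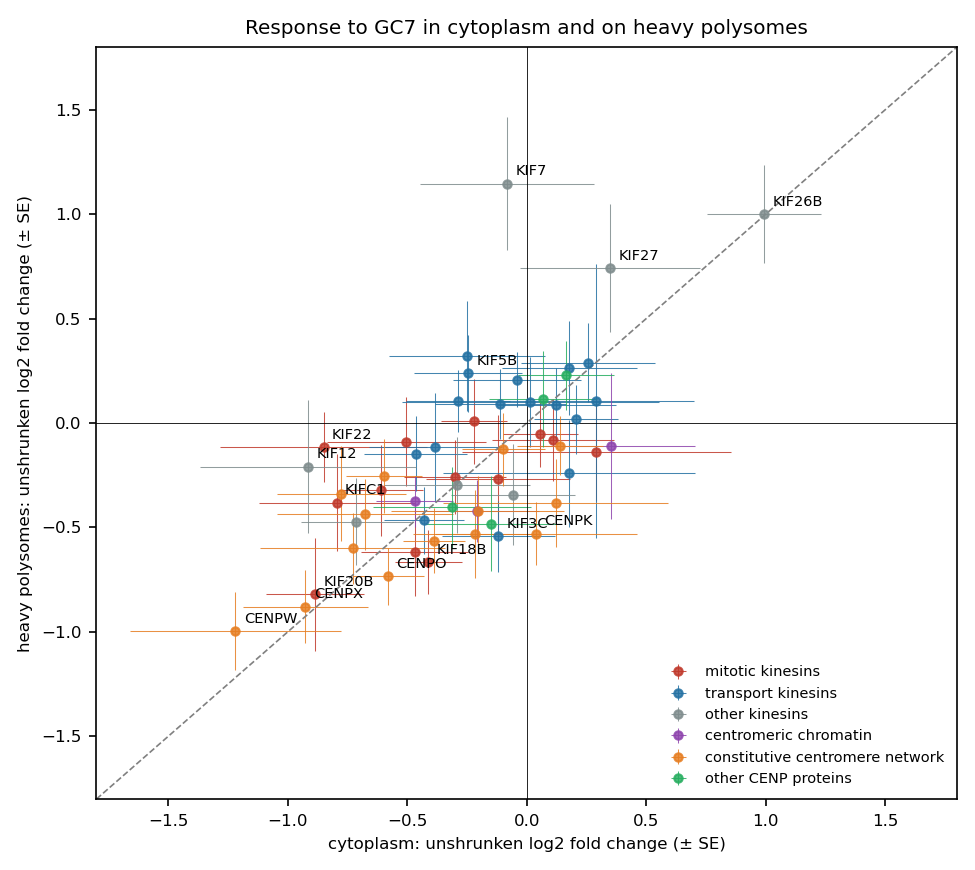
Unshrunken log2 fold change in polysomes against that in cytoplasm for the 57 members, coloured by role, with bars of 1 SE and a dashed line of equal change. Centromere proteins and mitotic kinesins lie mostly below 0 on the polysomal axis, and KIF7 lies farthest above the line, with a difference of 1.23.

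eIF5A helps ribosomes past stretches of consecutive prolines, so the members were searched for runs of at least 3 prolines in the GENCODE canonical coding sequence. Such a run was found in 16 of 57 members (28.1%) and in 26.3% of all genes with a coding sequence. It was found in 46.2% of mitotic kinesins, 37.5% of transport kinesins and 1 of 21 centromere proteins (4.76%). The longest runs were 8 prolines in CENPV, 5 in KIF26A and 4 in KIF1C, KIF2A and KIF13B. Their codons are shown for 3 genes with 4 codons on either side, with the proline codons in capitals.
CENPV: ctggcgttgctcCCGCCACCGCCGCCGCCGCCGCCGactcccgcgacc
KIF26A: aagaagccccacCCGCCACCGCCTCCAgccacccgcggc
KIF1C: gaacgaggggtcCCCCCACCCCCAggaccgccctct

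The run begins at residue 87 of 272 in CENPV, at residue 324 of 1882 in KIF26A and at residue 612 of 1103 in KIF1C. None of the 3 passed the test of the difference between fractions. The differences were 0.06 (95% interval -0.45 to 0.57) for CENPV, -0.01 (-0.76 to 0.75) for KIF26A and 0.32 (-0.23 to 0.87) for KIF1C. The median difference was 0.04 over the 16 members with a run and 0.05 over the 41 without. Among all genes the medians were 0.05 and near 0.

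In whole-cell RNA most members lay below 0 and none passed adjustment. The sign of this table was reversed, because its values as deposited ran against those of the fractions. The base of its logarithm is not stated. Benjamini-Hochberg adjustment over all genes called 0 members and 0 genes, with a smallest adjusted p of 0.642. At an unadjusted p under 0.05, 2 members were higher and 1 lower, beside 2.08% higher and 1.04% lower among the 14103 genes found in both tables. CENPI, of the centromere network, had a log fold change of -1.09 in the authors' deposited table after the sign was reversed (p = 0.0112). KIF27, a relative of KIF7, had 1.14 (p = 0.0102) and KIF26B had 0.84 (p = 0.0371) in the authors' deposited table, sign reversed. KIF26B thus had values of 0.84, 0.87 and 0.89 in whole cells, cytoplasm and polysomes in the authors' deposited table. Sizes are not compared, because those of the fractions are shrunken and the base of the whole-cell values is not stated.

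Whole-cell values below 0 are counted next with the sign of the authors' deposited table reversed. They were found for 11 of 13 mitotic kinesins, 14 of 21 centromere proteins and 12 of 16 transport kinesins, beside 53.1% of all genes. The medians in the authors' deposited table, sign reversed, were -0.53, -0.38 and -0.26, beside -0.03 for all genes. The lowest were -1.58 for KIF12 and -1.53 for KIF20B in the authors' deposited table, sign reversed, with unadjusted p of 0.264 and 0.0673. Values below 0 in all 3 kinds of RNA were found for 8 mitotic kinesins, 10 centromere proteins and 3 transport kinesins. The share of all genes was not computed for this count. The whole-cell sign was itself chosen from the fractions, so the count is no independent evidence of agreement. Symbols found in the whole-cell table alone were KIF4B, KIF5A, KIF6, KIF19 and KIF25, none with an unadjusted p under 0.05. KIF2B was found there too, at the fold change taken to mean no reads. KIF4B is a near-identical copy of KIF4A, so reads could be split between them. That table also holds 5 numbered copies of members. The copy of KIF26B had 1.14 in the authors' deposited table, sign reversed (p = 0.0197). The other copies, 2 of KIFC1 and 1 each of KIF15 and KIF5C, ran from -0.72 to -0.34 with no unadjusted p under 0.05.

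**Figure D4:**
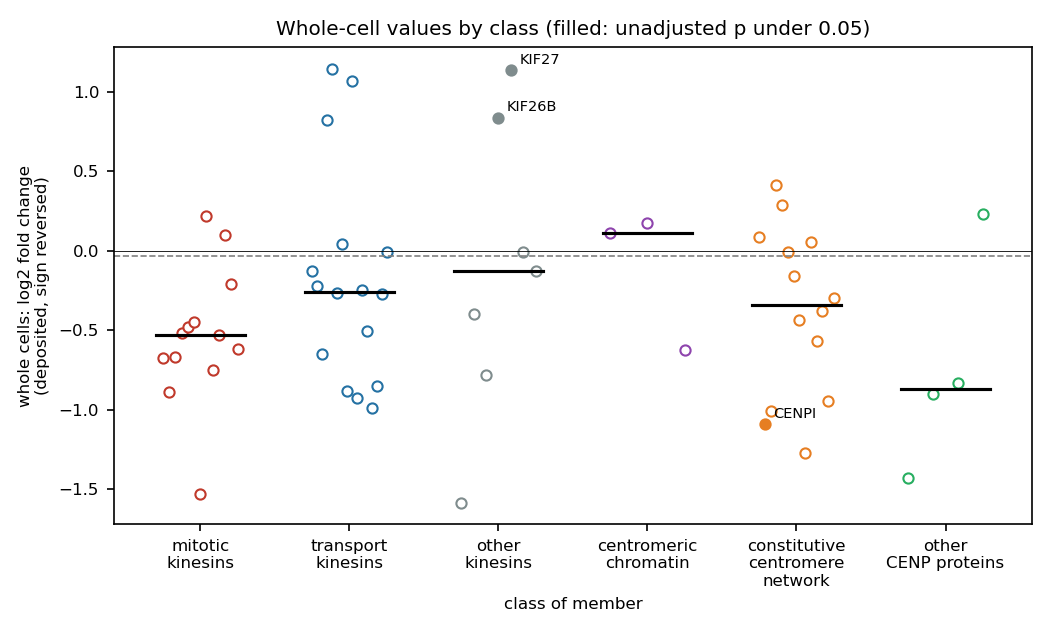
Whole-cell log fold change of GC7 against vehicle, sign reversed, with 1 point per member by role. The axis reads log2, though the base is not stated. Filled and named points have an unadjusted p under 0.05. Black bars are medians of a role and the dashed line is the median of all genes. The median is -0.53 for mitotic kinesins and -0.26 for transport kinesins, and KIF27, KIF26B and CENPI are the filled points.

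The levels of the members, over both treatments, differed widely. The authors' mean normalized count in cytoplasm was divided here by the length of the GENCODE canonical transcript in kilobases. CENPX led with 8628 per kilobase, followed by KIFC3 (2231), CENPW (2047), KIF22 (2018), CENPM (1633), CENPA (1330) and KIFC1 (1075). The lowest values per kilobase were 3.42 for KIF1A and 7.13 for KIF27. KIF1A is a motor of neuronal vesicles. Over the 57 members the mean normalized count in cytoplasm ran from 31.3 to 7494 in the authors' deposited table, and 51 members had at least 100 in both fractions.

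Mitotic kinesin mRNAs made up a smaller share of polysomal than of cytoplasmic RNA. For each gene the share of the summed mean normalized counts in polysomes was divided by that in cytoplasm, over both treatments together. The log2 of this ratio had a median of -0.49 for mitotic kinesins and was below 0 for 11 of 13, while the median was 0.51 for transport kinesins, 0.32 for centromere proteins and 0.35 for all genes, of which 25.2% were below 0. The fractions were normalized separately and no libraries were held apart, so these values carry no test.

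The lowest ratios were those of CENPE (-1.59), CENPF (-1.45), KIF20B (-1.36), CENPJ (-0.89) and KIF20A (-0.89). KIF18B (0.58) and KIF23 (0.26), the latter a subunit of centralspindlin that sets up the contractile ring, were the mitotic kinesins above 0. KIF3C (1.25) and CENPO (1.21) had the highest ratios of all members. CENPE and CENPF have the longest coding sequences of the members, 8103 and 9342 bases. The median ratio of all 637 genes over 4800 bases was 0.10, and the part of length in the ratios was not tested.

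**Figure D5:**
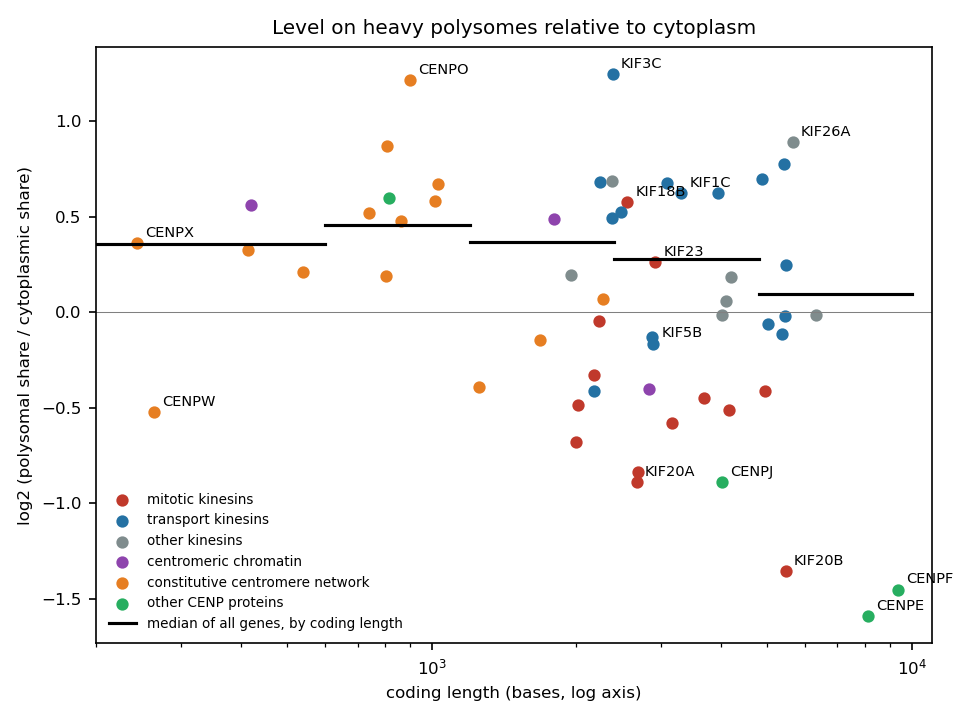
Log2 of the share of polysomal RNA over the share of cytoplasmic RNA for each member, coloured by role, against coding length in bases on a log axis; black bars are medians of all genes within 5 ranges of coding length. Of 13 mitotic kinesins 11 lie below 0, and CENPE lies lowest at -1.59, while the bars lie between 0.10 and 0.45.

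Partners of the members were counted from lists by role. The list of the core kinetochore, which joins the centromere network to microtubules, also held ITGB3BP, the gene of the network subunit CENP-R. Of the 18 measured genes of this list, 5 fell and 0 rose in polysomes, and 2 fell in cytoplasm. Among all genes 5.48% fell in polysomes and 1.95% in cytoplasm, the background of this and the next counts. SPC25 and SPC24, both subunits of the NDC80 complex, fell in polysomes by 0.84 (adjusted p = 1.29e-05) and 0.68 (adjusted p = 0.000268) in the authors' deposited table. ZWINT, which docks the checkpoint complex RZZ, fell by 0.83 in the authors' deposited table (adjusted p = 5.07e-08), SKA2 by 0.43 (adjusted p = 0.0177) and SKA3 by 0.42 (adjusted p = 0.0166). In cytoplasm SPC25 fell by 0.66 (adjusted p = 0.0116) and SKA3 by 0.74 (adjusted p = 0.00495) in the authors' deposited table.

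Of 7 factors that load CENP-A, 1 fell in polysomes: OIP5, a subunit of the Mis18 complex, by 0.45 in the authors' deposited table (adjusted p = 0.00692). None of 9 partners of mitotic kinesins and none of 20 light chains and adaptors of transport kinesins passed in either fraction. Cytoplasmic dynein and dynactin, the motor and cofactor for the opposite direction, had 21 measured genes, of which DYNLL1 and DCTN3 fell in polysomes by 0.49 (adjusted p = 0.0116) and 0.43 (adjusted p = 0.0216) in the authors' deposited table, and ACTR1A in cytoplasm by 0.54 (adjusted p = 0.000857). No gene of these 5 lists rose in either fraction. Among all genes 5.61% rose in polysomes and 2.29% in cytoplasm. No list was tested as a set.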

How the data were processed

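RNA of DU145 cells with GC7 or vehicle was sequenced in whole cells, cytoplasm and heavy polysomes, with 18 libraries in 6 groups of 3, per the labels. The labels' protocol names STAR with GRCh38, and the submitters' processing notes give STAR 2.7.8a and Salmon 1.4.0, the latter without its role. The tool of the comparisons is not given in the sources used here. The deposited fraction table covers 15747 genes. Per the file headers it holds the authors' mean normalized count (a signal over all libraries of a fraction), and log2 fold change with SE, p-value and adjusted p. The deposited whole-cell table covers 44682 genes, by log fold change of unstated base and p-value without adjustment. It holds no counts, and the 26661 genes whose fold change differed from its most frequent value were taken as those with reads.

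The sign of the whole-cell values was reversed, since they correlate negatively with those of cytoplasm and polysomes (Spearman's rho -0.28 and -0.37 across 14103 genes). In the fractions the fold changes were deposited shrunken. A Cauchy prior (scale 0.195 in cytoplasm, 0.205 in polysomes, natural log) gave back the z of the deposited p-values within 0.1 for 97.4% and 99.5% of genes. It was used to undo the shrinkage, and 78 genes off by over 0.5, none of them members, were left out of the difference between fractions. That test was tried on simulated data with independent errors and no change in cytoplasm. The trial does not show the power of the test for differences of the size seen in most members. Since the tables hold comparisons alone, the planned tests on counts per library were not possible. Depth per library is unknown.

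Coding sequences and overlaps are from GENCODE 44, promoters from RefSeq. Scripts ran in Python 3.11.15 with pandas 2.3.3 and scipy 1.17.1. Members and lists were chosen with earlier results of these data known. Named were all members with an adjusted p under 0.05 in a fraction or an unadjusted p under 0.05 in whole cells, and in each role the 4 highest mean counts and both polysomal extremes. Of the partner lists, those with the smallest p were named, and SKA2 beyond the limit of 4 a list. Other members were named to account for all 57, after their values were seen. Alternatives were stricter p, a minimum fold, a minimum mean count, other adjustments, correlated errors, unshrunken values and other class borders. A further marker list is not reported here.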

Additional observations from a re-analysis of the deposited data

How the results depend on the processing

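With an adjusted p under 0.01, the members called lower went from 6 to 3 in cytoplasm and from 13 to 7 in polysomes. Where the log2 fold change also had to pass 1 in size, as in the authors' categories, 0 members were called lower or higher in either fraction. With a mean normalized count of at least 100, members called higher in polysomes went from 2 to 1, since KIF7 was not tested. Undoing the shrinkage moved the median of mitotic kinesins from -0.16 to -0.41 in cytoplasm and from -0.09 to -0.26 in polysomes, by construction. The other 30 values computed kept their direction, with a count within 1.5 times or a median moved by less than the median SE of its genes (for ratios of levels, the SD over members). Among them, undoing the shrinkage took the median of centromere proteins in cytoplasm from -0.09 to -0.22 and those of transport kinesins from -0.03 to -0.08 in cytoplasm and from 0.05 to 0.10 in polysomes. Leaving out KIF21A, KIF21B, KIFC2, KIFC3 and KIF17 took the transport medians to -0.05 in cytoplasm and 0.01 in polysomes. A minimum count of 100 took the former to -0.04. Without mitochondrially encoded genes in the sums, the median log2 ratio of polysomal to cytoplasmic share went from -0.49 to -0.66 for mitotic kinesins, from 0.51 to 0.34 for transport kinesins and from 0.32 to 0.15 for centromere proteins. No value under any alternative changed sign. The whole-cell count and both counts of the difference between fractions were 0 under every alternative run.

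No paired analysis was possible because the tables hold no values per library. Leaving out replicates and other normalizations were not run for the same reason, and no call was checked against a single library. Intervals of single differences between fractions, such as -0.57 to 0.67 for CENPX, limit what was detectable.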
